A study of Mus musculus with 24 samples.

Results

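Interleukin-6 family cytokines, their receptor subunits and the STAT3 branch of their signalling were examined in mouse skin and skin wounds as 10 genes chosen by name: the ligands Il6, Il11, Lif, Osm and Clcf1, the receptor subunits Il6st, Il6ra and Osmr, the transcription factor Stat3 and the feedback inhibitor Socs3. All 10 were found among the 18368 genes of the expression table. The samples were 24 libraries of total RNA from whole skin of 12 CD1 mice, an outbred stock, 7 weeks old, shaved and with hair follicles in the resting phase (telogen). There were 4 mice for each of abdomen, back and cheek, and each mouse gave a 2 mm punch of a full-thickness wound at day 3 and a punch of healthy skin next to it, called unwounded skin here. Cheek mice carried 1 wound and abdomen and back mice 2, so the number of wounds and the cheek cannot be told apart. A wound library and the unwounded library of the same mouse were treated as a pair throughout.

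The family works through a shared receptor chain. The 5 ligands described here signal through receptor complexes that contain gp130, the product of Il6st, which activates JAK kinases that phosphorylate STAT3. Phosphorylated STAT3 enters the nucleus and switches on genes that include its own inhibitor, Socs3. In wounded skin, IL-6 and oncostatin M are known as early signals from infiltrating leukocytes and stromal cells, and STAT3 in keratinocytes is known for its part in the migration that closes a wound. RNA levels show neither the cytokine proteins nor the phosphorylation of STAT3, and neither was measured in these libraries.

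Values are FPKM (mapped fragments scaled by transcript length and by the size of the library), which allow levels of different genes to be compared. A wound effect is the mean difference, wound minus unwounded skin of the same mouse, of log2(FPKM + 0.5), fitted with limma over all 24 libraries and called where the adjusted p lay under the threshold of 0.001. On this scale the change of a gene near 0 FPKM is understated. Of the 14423 genes tested, 3.92% rose in abdomen wounds, 10% in back wounds and 6.50% in cheek wounds, and 1.04%, 4.37% and 2.19% fell. The median wound effect of all tested genes was -0.01, 0.07 and 0.01 on the log2 scale in abdomen, back and cheek.

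Among the members, 4 rose in abdomen wounds, 6 in back wounds and 4 in cheek wounds, and none fell at any site. Osm, Clcf1, Stat3 and Socs3 rose at every site, and Il6 and Il11 rose in back wounds. Genes were tested if they reached 0.5 FPKM in at least 4 of the 24 libraries. Il6, Il11 and Osm met this through their wound libraries, since their highest unwounded values were 0.44, 0.3 and 0.5 FPKM. These genes thus entered the test by being high in wounds. Over the 10 members the median wound effect on the log2 scale was 0.47, 1.01 and 0.87 at abdomen, back and cheek. The abdomen count rested on small margins: it was 1, 2, 1 and 1 without abdomen mouse 1, 2, 3 and 4, with Osm called each time, and the cheek count was 2 without cheek mouse 3 and 2 without cheek mouse 4. With quantile normalisation 2 members were called in abdomen, and in a fit of each site on its own 8 libraries 0 were called in abdomen and 1 in cheek. At a threshold of 0.05, chosen after seeing the data, the counts were 4, 7 and 7, and 16.9%, 28.0% and 19.7% of all genes tested rose at abdomen, back and cheek.

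As a mean over the 3 sites, a contrast also chosen after seeing the data, 7 members rose (Il6, Il11, Osm, Clcf1, Osmr, Stat3 and Socs3), none fell, and Lif, Il6st and Il6ra were not called. Over all genes tested, 19.1% rose and 14.4% fell in that contrast. The same 7 were counted under every alternative tried for that contrast.

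**Figure D1:**
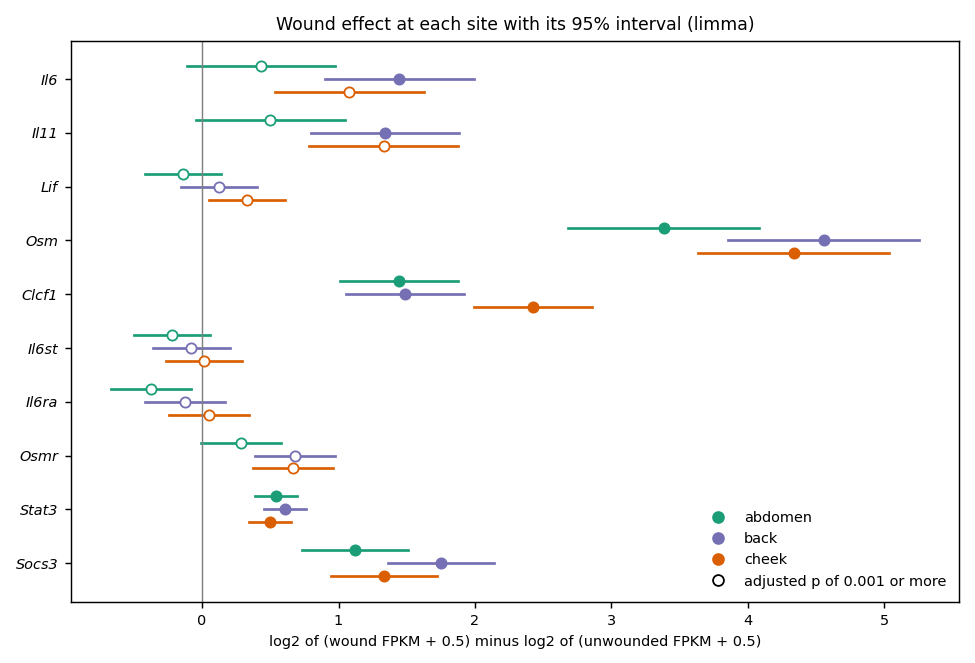
Wound effect of each member at each site (x axis, difference of log2(FPKM + 0.5), wound minus unwounded skin) with its 95% interval; filled points passed the threshold of 0.001. Osm lies farthest to the right, from 3.38 in abdomen to 4.56 in back, and the Il6st intervals span 0 at all 3 sites.

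The ligand Osm, which encodes oncostatin M, a cytokine made largely by myeloid cells, had the largest wound effect of the 10 members at all 3 sites. The gene lies at chr11:4236785-4241026 (GRCm38; all gene positions are those of RefSeq). In unwounded skin Osm was listed at 0, 0.5, 0.2 and 0.29 FPKM in abdomen mice 1 to 4, at 0.23, 0, 0.16 and 0.1 FPKM in back mice 1 to 4, and at 0.39, 0.23, 0.22 and 0 FPKM in cheek mice 1 to 4. In wounds it stood at 12.45, 3.9, 9.85 and 5.05 FPKM in abdomen, 16.37, 10.19, 13.66 and 16.82 FPKM in back, and 10.3, 17.03, 17.54 and 10.92 FPKM in cheek. Every wound library lay far above every unwounded one, and the 2 lowest wound libraries were both from the abdomen.

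On the log2 scale Osm rose by 3.38 (SE 0.32, limma adjusted p = 2.86e-05) in abdomen, 4.56 (SE 0.32, adjusted p = 1.19e-06) in back and 4.34 (SE 0.32, adjusted p = 2.21e-06) in cheek. The rise was seen in 12 of 12 mice (exact sign-change permutation test, two-sided, p = 0.000488, the smallest that 12 mice can give). It passed the threshold at every site whichever mouse was left out. With pseudocounts of 0.1 and 1 FPKM and the other alternatives, the back effect ranged from 3.75 to 6.11, since the unwounded level was close to 0.

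Summed neutrophil and macrophage markers were also higher in wounds than in unwounded skin at every site. The summed level of 6 neutrophil markers (Csf3r, Cxcr2, S100a8, S100a9, Retnlg and Ly6g) was 8.18 to 37.6 FPKM over the unwounded libraries and 344.1 to 2388 FPKM over the wound libraries. All 6 rose as a mean over the sites, and Ly6g was listed at 0 in every unwounded library of abdomen and back. The summed level of 6 macrophage markers was 375.3 to 764.7 FPKM in unwounded skin and 700.9 to 1177 FPKM in wounds, and 5 of the 6 rose as a mean over the sites. S100a8 and S100a9 made up most of the neutrophil sum in wounds. In abdomen wounds they averaged 474.7 and 645.0 FPKM, beside 12.0 FPKM for Csf3r and 10.2 FPKM for Cxcr2. The order of the sites differed by marker: S100a8 averaged highest in abdomen wounds, and S100a9 and Retnlg in back. Csf3r (25.4 FPKM), Cxcr2 (15.4 FPKM) and Ly6g averaged highest in cheek. The sum per library therefore mainly ranks S100a8 and S100a9. The wound library with the highest neutrophil sum, abdomen mouse 1 (2388 FPKM), had 12.45 FPKM of Osm. The next 3 were back mouse 1 (1537 FPKM, with 16.37 FPKM of Osm), cheek mouse 3 (1375 FPKM, with the highest Osm, 17.54 FPKM) and back mouse 2 (1319 FPKM, with 10.19 FPKM of Osm). Abdomen mouse 2 had a neutrophil sum of 1196 FPKM and the lowest Osm of all wounds, 3.9 FPKM. The macrophage sum was lowest in the wound of abdomen mouse 1 (700.9 FPKM), which had the highest Osm of the abdomen wounds. It was highest in back mouse 3 (1177 FPKM, with 13.66 FPKM of Osm). The part of infiltrating cells in the Osm difference was not tested, and in whole tissue more cells of a type and more RNA per cell cannot be told apart.

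Clcf1 encodes cardiotrophin-like cytokine factor 1, which signals through gp130 and the leukaemia inhibitory factor receptor. It lies at chr19:4214238-4223505. Unwounded Clcf1 was 1.48, 1.29, 1.29 and 1.18 FPKM in abdomen, 1.08, 1.29, 0.65 and 1.01 FPKM in back, and 0.8, 0.69, 1.07 and 0.89 FPKM in cheek. The wounds held 6.56, 3.94, 4.3 and 3.34 FPKM in abdomen, 4.6, 3.01, 4.32 and 3.02 FPKM in back, and 3.96, 5.23, 10.8 and 9.26 FPKM in cheek. Wound and unwounded libraries did not overlap at any site, and cheek mice 3 and 4 stood above every other wound.

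Clcf1 rose by 1.44 (SE 0.20, adjusted p = 0.000264) in abdomen, 1.49 (SE 0.20, adjusted p = 9.45e-05) in back and 2.43 (SE 0.20, adjusted p = 3.03e-06) in cheek on the log2 scale, by limma. Single back mice had wound to unwounded ratios of 2.33 to 6.65, and single cheek mice of 4.95 to 10.4. Of the 10 members, Clcf1 had the lowest p in limma's F test of a difference between the 3 wound effects, 0.00623 unadjusted, which did not pass after adjustment over all genes (limma adjusted p = 0.239). The cheek effect exceeded the abdomen effect by 0.99 (95% interval 0.37 to 1.60, adjusted p = 0.292) and the back effect by 0.94 (95% interval 0.33 to 1.55, adjusted p = 0.495).

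Il6, at chr5:30013114-30019975, encodes interleukin-6, the family's founding member and an inducer of acute-phase genes. Its RNA was low throughout. The unwounded values were 0, 0.38, 0.23 and 0.39 FPKM in abdomen, 0.06, 0, 0.12 and 0.24 FPKM in back, and 0.12, 0.18, 0.44 and 0.33 FPKM in cheek. In wounds Il6 was 0.75, 0.7, 0.27 and 0.32 FPKM in abdomen, 1.62, 0.84, 1.6 and 0.68 FPKM in back, and 0.73, 0.59, 2.6 and 1.07 FPKM in cheek. Back and cheek wounds lay above the unwounded skin of the same site in all 4 mice each, whereas abdomen mouse 4 had slightly less Il6 in its wound than beside it.

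The wound effect of Il6 was 0.43 (SE 0.25, limma adjusted p = 0.205) in abdomen, 1.44 (SE 0.25, adjusted p = 0.000611) in back and 1.08 (SE 0.25, adjusted p = 0.00551) in cheek, so that it was called in back. It was lost there without 4 of the 12 mice, with an adjusted p of up to 0.00507. The difference between the sites' effects had an F test p of 0.0413 (limma adjusted p = 0.364). The back value depended on the pseudocount, from 0.96 to 2.70 over the alternatives, because the lowest Il6 value above 0 was 0.06 FPKM.

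Il11 encodes interleukin-11, a gp130 cytokine of stromal cells, and lies at chr7:4772373-4782907. Unwounded skin had 0.13, 0.19, 0.28 and 0.3 FPKM of Il11 in abdomen, 0.03, 0.03, 0.13 and 0.22 FPKM in back, and 0.27, 0.07, 0.23 and 0.16 FPKM in cheek. Wounds had 1.23, 0.42, 0.4 and 0.26 FPKM in abdomen, 1.15, 0.72, 1.45 and 0.83 FPKM in back, and 0.78, 0.63, 2.38 and 1.53 FPKM in cheek. As for Il6, back and cheek groups did not overlap, cheek mouse 3 had the highest wound level and abdomen mouse 4 was lower in the wound.

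Its wound effect was 0.50 (SE 0.25, limma adjusted p = 0.142) in abdomen, 1.34 (SE 0.25, adjusted p = 0.000991) in back and 1.33 (SE 0.25, adjusted p = 0.00148) in cheek. The back call sat at the threshold: it held in 2 of 12 fits that left out a mouse and in 3 of 9 other settings. Over the 3 sites the mean effect was 1.06 (95% interval 0.74 to 1.37, adjusted p = 4.13e-05). Abdomen mouse 1 carried much of the abdomen value, 1.23 FPKM against 0.26 to 0.42 FPKM in the other abdomen wounds.

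The promoters of Il6 and Il11 are shown because both ligands went from near 0 FPKM to about 1 FPKM in wounds, and wound-induced cytokine genes are commonly driven by AP-1 and C/EBP factors. The windows are the 250 bases before the start sites listed by RefSeq (GRCm38.p6), of which 8 of the 10 members had an entry (all but Osm and Clcf1). Both strands were searched for AP-1 (TGANTCA), C/EBP (TTGNGCAA) and STAT (TTCNNNGAA) letters, which are present in 6.75%, 2.61% and 7.02% of the 32851 promoters of that table. Capitals mark the matches. The Il6 window, chr5:30012864-30013113 on the plus strand, overlaps no annotated transcript (GENCODE vM21). It holds an AP-1 match that begins 249 bases before the start and a C/EBP match at 128 bases. The Il11 window, chr7:4778142-4778391 on the minus strand, precedes the second start listed for the gene, inside an intron of longer Il11 transcripts. It holds an AP-1 match at 98 bases and was chosen for printing because of that match. The other Il11 window, chr7:4782858-4783107, precedes the other listed start and holds none of the searched letters.
Il6: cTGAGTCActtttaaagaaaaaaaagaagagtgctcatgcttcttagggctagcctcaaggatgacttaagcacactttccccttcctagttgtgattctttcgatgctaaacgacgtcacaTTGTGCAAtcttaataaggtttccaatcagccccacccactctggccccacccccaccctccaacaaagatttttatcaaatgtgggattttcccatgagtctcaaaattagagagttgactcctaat
Il11: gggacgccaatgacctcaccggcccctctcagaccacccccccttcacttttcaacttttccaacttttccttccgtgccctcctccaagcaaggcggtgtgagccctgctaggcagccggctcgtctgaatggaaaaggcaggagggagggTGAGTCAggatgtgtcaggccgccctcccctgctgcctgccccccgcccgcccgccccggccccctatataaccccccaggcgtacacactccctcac
The Lif window also holds an AP-1 match (TGACTCA, 228 bases before the start). Matches are letters only, and binding was not measured.

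Lif, at chr11:4257568-4272514, encodes leukaemia inhibitory factor, which signals through gp130 and its own receptor. It was the ligand with the smallest wound effects. Unwounded Lif was 0.61, 0.56, 0.96 and 0.93 FPKM in abdomen, 0.6, 0.93, 0.81 and 1.1 FPKM in back, and 0.71, 0.71, 0.68 and 0.55 FPKM in cheek. The wound values were 0.56, 0.54, 0.83 and 0.63 FPKM in abdomen, 0.92, 1.04, 1.02 and 0.89 FPKM in back, and 1.21, 1.2, 0.98 and 0.56 FPKM in cheek. Wound and unwounded libraries overlapped at each site.

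In abdomen the wound value of Lif was the lower one in 4 of 4 mice and in cheek the higher one in 4 of 4, while in back it was higher in 3 of 4. The effects were -0.14 (95% interval -0.42 to 0.14, limma adjusted p = 0.419), 0.12 (95% interval -0.16 to 0.40, adjusted p = 0.465) and 0.33 (95% interval 0.05 to 0.61, adjusted p = 0.0589) in abdomen, back and cheek. The cheek effect exceeded the abdomen effect by 0.47 (95% interval 0.08 to 0.87), at an unadjusted limma p of 0.0218 that did not pass after adjustment (adjusted p = 0.358).

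Added together, the 5 ligand genes came to between 1.87 and 3.09 FPKM in the unwounded libraries and between 9.5 and 34.3 FPKM in the wounds. The make-up of this sum differed between the states. Clcf1 made up 34.8% to 66.7% of it in unwounded skin and Lif 19.2% to 43.3%, whereas Osm made up at most 17.1%. In wounds the Osm share was 41.1% to 62.9% in abdomen, 62.0% to 75.6% in back and 46.8% to 69.0% in cheek, and the Lif share was 2.40% to 7.13% over the 3 sites. Other ligand genes of the family lie outside this sum, so the shares hold for these 5 genes only. Among them Ctf1 averaged 5.1, 6.7 and 5.3 FPKM in unwounded abdomen, back and cheek, and 3.3, 2.9 and 2.5 FPKM in wounds. Cntf averaged 1.8, 2.3 and 1.6 FPKM in unwounded skin and 1.5, 1.7 and 1.6 FPKM in wounds. Ebi3 and Il27 averaged higher in wounds than in unwounded skin at each site.

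**Figure D2:**
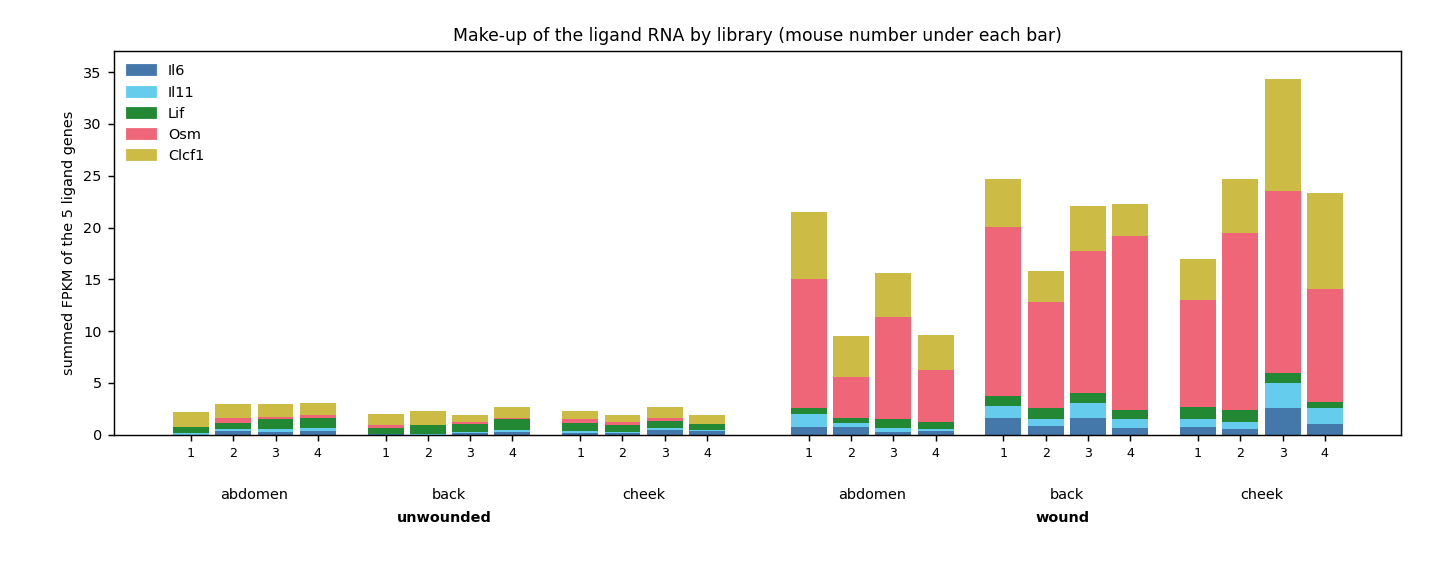
Summed FPKM of the 5 ligand genes in each of the 24 libraries (y axis), stacked by gene, with the site and mouse number on the x axis. Unwounded bars stay at or below 3.09 FPKM, and wound bars reach 9.5 to 34.3 FPKM with Osm as the largest block in all of them except abdomen mouse 2, where Clcf1 (3.94 FPKM) and Osm (3.9 FPKM) are nearly equal.

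Il6st encodes gp130, the receptor chain shared by the 5 ligands described here, and lies at chr13:112464070-112506860. It was the most abundant of the 10 members in unwounded skin, at 41.89, 54.17, 38.35 and 56.02 FPKM in abdomen, 39.26, 47.42, 49.79 and 48.52 FPKM in back, and 54.47, 62.54, 49.77 and 47.33 FPKM in cheek. The wounds gave 40.75, 46.66, 31.63 and 43.56 FPKM in abdomen, 53.1, 40.31, 42.25 and 39.98 FPKM in back, and 54.86, 46.55, 55.09 and 59.68 FPKM in cheek. The 2 states overlapped at every site, and the wound effects were -0.22 (95% interval -0.50 to 0.06), -0.08 (95% interval -0.36 to 0.20) and 0.02 (95% interval -0.26 to 0.30) in abdomen, back and cheek. The lowest limma adjusted p of these was 0.205.

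The specific receptor of interleukin-6, Il6ra (chr3:89869324-89913196), also showed no called wound effect. It was 14.63, 20.39, 10.08 and 21.88 FPKM in unwounded abdomen, 15.03, 11.86, 15.29 and 10.87 FPKM in back, and 17.89, 13.39, 15.68 and 9.68 FPKM in cheek. Wounds had 9.48, 14.86, 10.02 and 16 FPKM in abdomen, 13.14, 12.42, 12 and 10.61 FPKM in back, and 16.23, 14.59, 12.12 and 14.83 FPKM in cheek. The wound value was the lower one in 4 of 4 abdomen mice, with an effect of -0.37 (95% interval -0.67 to -0.08, limma adjusted p = 0.0504), and the other sites gave -0.12 (95% interval -0.42 to 0.17) and 0.05 (95% interval -0.24 to 0.35).

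Osmr encodes the subunit that pairs with gp130 to bind oncostatin M and lies at chr15:6813568-6874968. Unwounded Osmr was 7.37, 9.38, 7.74 and 7.89 FPKM in abdomen, 6.15, 6.26, 8.21 and 6.76 FPKM in back, and 8.84, 8.55, 8.03 and 6.71 FPKM in cheek. In wounds it was 12.37, 10.79, 8.07 and 9.02 FPKM in abdomen, 13.8, 10.94, 11.99 and 8.71 FPKM in back, and 12.52, 11.93, 13.65 and 13.83 FPKM in cheek. Wound values exceeded those of the same mouse's unwounded skin in 12 of 12 mice, and the groups were separate in back and cheek but overlapped in abdomen.

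No single site passed the threshold for Osmr: the effects were 0.29 (SE 0.14, limma adjusted p = 0.122), 0.68 (SE 0.14, adjusted p = 0.00145) and 0.66 (SE 0.14, adjusted p = 0.00236) in abdomen, back and cheek. The mean over the 3 sites was a rise of 0.54 (95% interval 0.37 to 0.71, adjusted p = 6.01e-05), about the size of the rise of Stat3 and far smaller than that of its ligand.

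**Figure D3:**
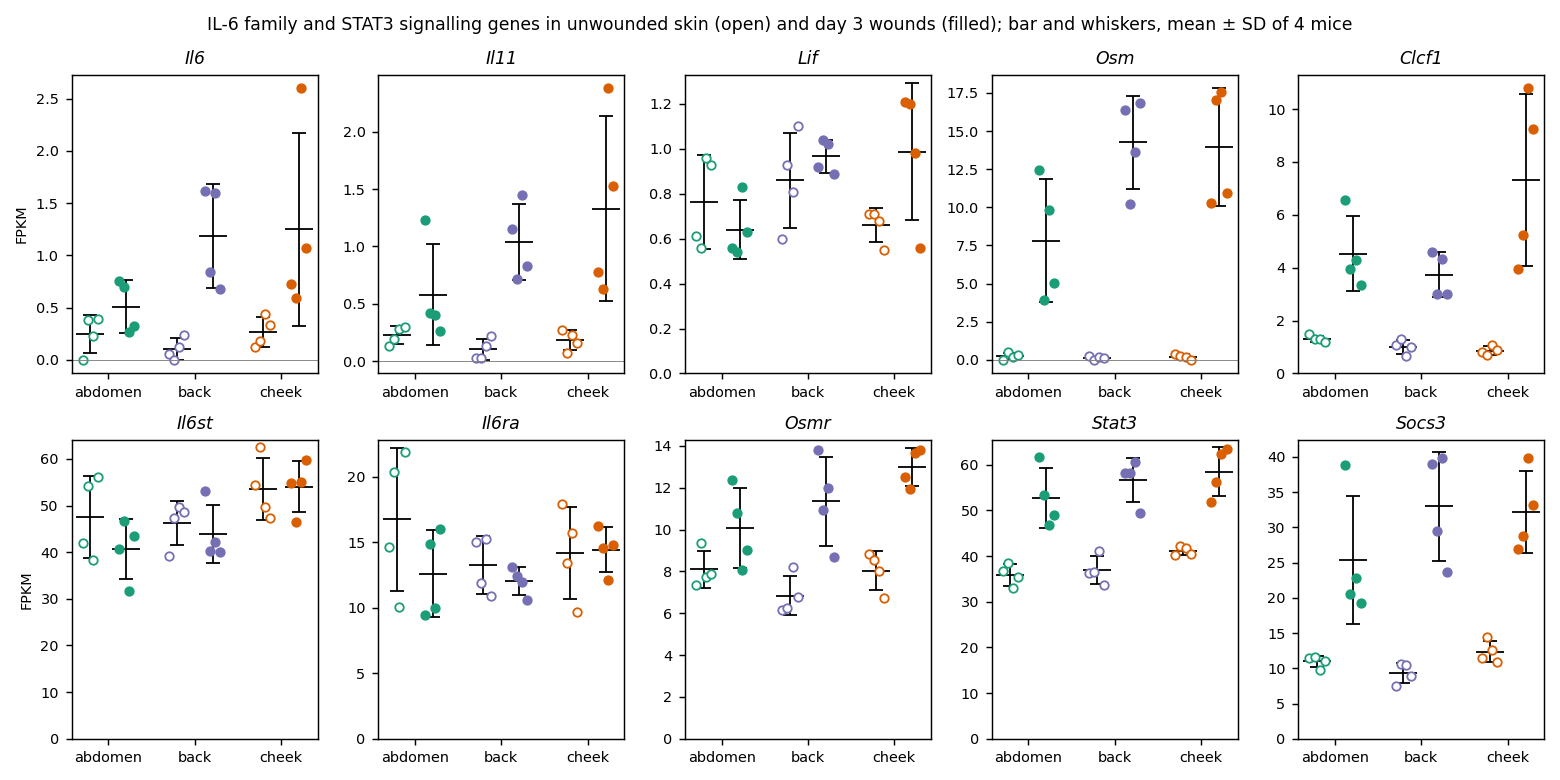
FPKM (y axis, linear, own scale in each panel) of the 10 members in every library; open circles are unwounded skin, filled circles are day 3 wounds, and the bar with whiskers is the mean ± SD of 4 mice. The open and filled groups are separate at all sites for Osm, Clcf1, Stat3 and Socs3 and overlap at all sites for Lif, Il6st and Il6ra. The share of all genes with separate groups was not computed.

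Stat3, at chr11:100886806-100939594, encodes the transcription factor that the receptors activate. Its unwounded level was narrow, at 36.69, 38.55, 32.9 and 35.35 FPKM in abdomen, 36.37, 36.59, 41.07 and 33.71 FPKM in back, and 40.18, 42.28, 41.66 and 40.42 FPKM in cheek. Wounds held 61.59, 53.26, 46.8 and 48.92 FPKM in abdomen, 58.12, 58.16, 60.64 and 49.53 FPKM in back, and 51.92, 56.18, 62.4 and 63.41 FPKM in cheek. The lowest wound value, 46.8 FPKM, lay above the highest unwounded value, 42.28 FPKM.

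Stat3 rose by 0.54 (SE 0.07, limma adjusted p = 0.000191) in abdomen, 0.61 (SE 0.07, adjusted p = 3.58e-05) in back and 0.50 (SE 0.07, adjusted p = 0.000232) in cheek, which are 1.46-, 1.53- and 1.41-fold. Single mice had ratios between 1.29 and 1.68, the narrowest range among the members that rose. In the F test of a difference between the 3 effects, Stat3 had an unadjusted limma p of 0.562, and the cheek effect minus the back effect was -0.11 (95% interval -0.33 to 0.11). Leaving out 1 mouse at a time kept the effect between 0.45 and 0.63 over the 3 sites, with an adjusted p of at most 0.00215. The abdomen call was missed in 3 of those 12 fits and the cheek call in 3.

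Socs3, at chr11:117966079-117970336, encodes a suppressor of cytokine signalling that binds gp130 and JAK kinases and is itself a STAT3 target. In unwounded skin Socs3 was 11.43, 11.64, 9.79 and 11.03 FPKM in abdomen, 7.42, 10.56, 10.43 and 8.96 FPKM in back, and 11.52, 14.44, 12.56 and 10.94 FPKM in cheek. In wounds it was 38.8, 20.53, 22.83 and 19.28 FPKM in abdomen, 38.95, 29.46, 39.83 and 23.71 FPKM in back, and 26.89, 28.8, 39.9 and 33.11 FPKM in cheek. Each wound library lay above all 12 unwounded ones, and among abdomen wounds mouse 1 stood apart from the other 3.

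The rise of Socs3 was 1.12 (SE 0.18, limma adjusted p = 0.000784) in abdomen, 1.75 (SE 0.18, adjusted p = 1.38e-05) in back and 1.34 (SE 0.18, adjusted p = 0.000147) in cheek. These are 2.17-, 3.36- and 2.52-fold. The abdomen call held in 3 of 12 fits that left out a mouse, with an effect of 0.92 to 1.23 and an adjusted p of at most 0.00538, and in 4 of 9 other settings.

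A promoter window of Socs3 is shown, as the only window among the members that holds a STAT match, the letters that STAT3 dimers bind. The match TTCTTAGAA begins 154 bases before the RefSeq start site. The part printed is 150 bases, chr11:117969467-117969616 on the minus strand of GRCm38.p6, inside an intron of a longer annotated Socs3 transcript (GENCODE vM21) and overlapping no exon. It was cut from the 250 bases searched so as to stop before an annotated exon. The position of the gene extends upstream of this window, to base 117970336, and the bases before that end were not searched. The match is in capitals, and such letters are in 7.02% of all promoters searched.
Socs3: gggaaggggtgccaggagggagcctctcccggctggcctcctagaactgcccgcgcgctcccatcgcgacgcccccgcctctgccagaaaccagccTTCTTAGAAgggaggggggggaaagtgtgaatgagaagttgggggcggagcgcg
None of the other 7 members with an entry had these letters in its 250 bases.

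**Figure D4:**
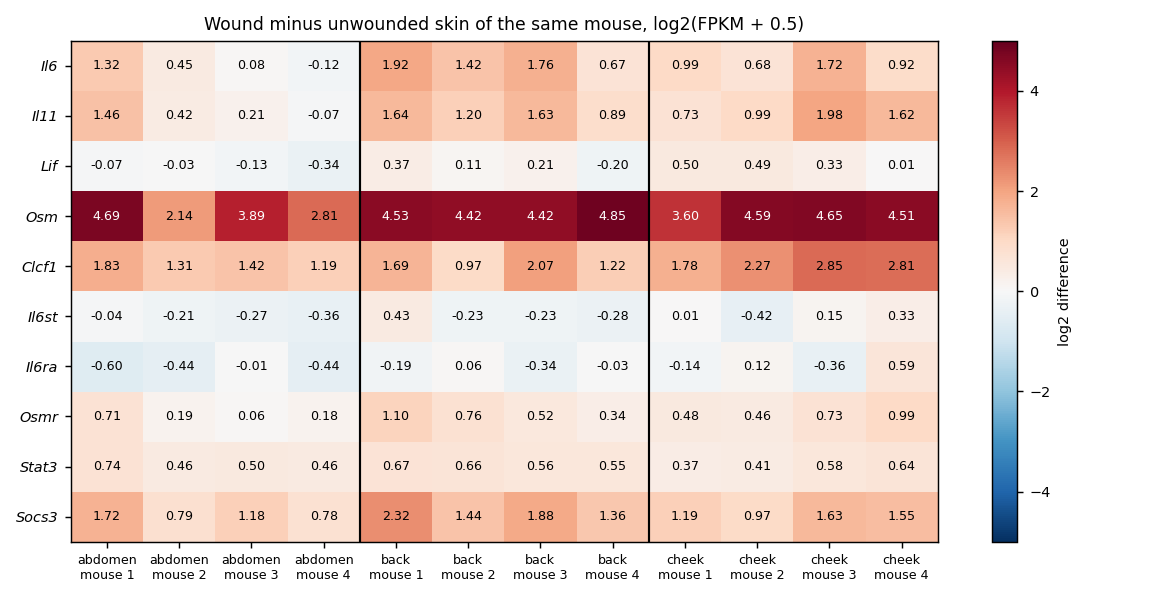
Wound minus unwounded difference of log2(FPKM + 0.5) in each of the 12 mice (columns) for the 10 members (rows), with red for higher and blue for lower in the wound. Osm, Clcf1, Osmr, Stat3 and Socs3 are positive in 12 of 12 mice, Il6 and Il11 in 11 of 12, and the Lif, Il6st and Il6ra rows change sign between mice.

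The order of the members by mean FPKM changed with wounding. Over the 12 unwounded libraries it ran Il6st (49.1 ± 7.10 FPKM, SD), Stat3 (38.0 ± 3.16), Il6ra (14.7 ± 3.89), Socs3 (10.9 ± 1.76), Osmr (7.66 ± 1.03), Clcf1 (1.06 ± 0.26), Lif (0.76 ± 0.18), Il6 (0.21 ± 0.15), Osm (0.19 ± 0.16) and Il11 (0.17 ± 0.09). The last 3 could not be ordered, since Il6 exceeded Osm in 5 of 12 libraries and Osm exceeded Il11 in 5. Over the 12 wound libraries Stat3 (55.9 ± 5.71) came first, above Il6st (46.2 ± 8.10) in 11 of 12 libraries, followed by Socs3 (30.2 ± 7.80). Then Il6ra (13.0 ± 2.29), Osm (12.0 ± 4.54) and Osmr (11.5 ± 2.00) lay within each other's spread, with Il6ra above Osm in 6 of 12 libraries and Osm above Osmr in 7. Clcf1 (5.20 ± 2.48) stood above Il11 (0.98 ± 0.60), Il6 (0.98 ± 0.66) and Lif (0.87 ± 0.24), which were not separable.

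The sites were then compared within each state, with p adjusted over all genes and a threshold of 0.05. In unwounded skin 7 of the 10 members could be tested, since Il6, Il11 and Osm stayed under the filter of 0.5 FPKM in 4 libraries. None of the 7 differed between any pair of sites by limma after adjustment, and 3 had an unadjusted p under 0.05 (Clcf1, Stat3 and Socs3). The share of all genes at that unadjusted level was not computed. The share of all 13956 genes tested that passed was 2.67% for back against abdomen, 2.57% for cheek against abdomen and 1.05% for cheek against back. Stat3 was 35.9 FPKM in unwounded abdomen and 41.1 FPKM in unwounded cheek on average, with no overlap between the groups of 4, and Socs3 was 9.34 FPKM in back and 12.4 FPKM in cheek, also with no overlap. For Clcf1 the order was the other way, 1.31 FPKM in abdomen and 0.86 FPKM in cheek without overlap. Each of these had an exact permutation p of 0.0286, the smallest that 4 against 4 can give, and 0.403 after adjustment over the 60 such tests. Back skin stood lower as a whole on this scale: the median of all genes was -0.12 for back minus abdomen and 0.14 for cheek minus back, beside 0.39 for Socs3 in the latter.

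Among wounds all 10 members were tested, and none differed between sites by limma after adjustment. An unadjusted p under 0.05 in at least 1 pair was seen for 7. The share of all genes at that unadjusted level was not computed, so this count has no background beside it. Of 14023 genes tested, 1.27% passed for back against abdomen, 10.8% for cheek against abdomen and 2.50% for cheek against back. The nearest to the threshold was Il6st, 0.42 higher in cheek than in abdomen wounds (95% interval 0.14 to 0.70, limma adjusted p = 0.0564). Osm was 0.94 higher in back than in abdomen wounds (95% interval 0.21 to 1.66, adjusted p = 0.187) and 0.89 higher in cheek than in abdomen wounds (95% interval 0.17 to 1.62, adjusted p = 0.0947). Without abdomen mouse 1, both Osm (1.15, adjusted p = 0.0385) and Il11 (0.99, adjusted p = 0.0495) passed for cheek against abdomen. Il6st passed there without abdomen mouse 2 (0.49, adjusted p = 0.0450) or back mouse 1 (adjusted p = 0.0467), and Lif without cheek mouse 4 (0.52, adjusted p = 0.0451). By exact permutation, Lif in back against abdomen wounds was the only member without overlap (0.97 and 0.64 FPKM, p = 0.0286, 0.403 after adjustment). How many of all genes had no overlap was not computed.

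The wound effects themselves were compared between sites with an F test, in which 3 of 14423 genes passed (0.0208%). None of the 10 members did, and Il6 and Clcf1 had an unadjusted p under 0.05, a level for which the share of all genes was not computed. For back minus abdomen the difference of effects was 1.01 for Il6 (95% interval 0.24 to 1.78), 1.17 for Osm (95% interval 0.18 to 2.16) and 0.63 for Socs3 (95% interval 0.08 to 1.18), with limma adjusted p of 0.219, 0.259 and 0.272. The fact that 6 members passed in back and 4 in abdomen or cheek is therefore no measured difference between the sites.

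Other genes of the pathway were taken from 4 lists by role, 46 genes in all, of which 44 were tested. In abdomen wounds 7 of them rose, in back wounds 17 and in cheek wounds 8, and 0, 1 and 1 fell. Among all genes tested, 3.92%, 10% and 6.50% rose in abdomen, back and cheek, and 1.04%, 4.37% and 2.19% fell. The lists were chosen with earlier results of these data known. The back count was 11 with median-ratio scaling, 11 with quantile normalisation and 7 to 10 without any 1 back mouse, and the cheek count was 5 without cheek mouse 2, 3 or 4. The median wound effect of the 44 genes was 0.20, 0.37 and 0.26 in the 3 sites.

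Among the other ligands and receptors, 10 of 12 tested, Ebi3 and Il27ra rose in back wounds and Ctf1, which encodes cardiotrophin 1, fell in back and cheek. Ctf1 went from 6.68 ± 1.44 to 2.86 ± 0.31 FPKM in back (SD, n = 4) and from 5.30 ± 0.39 to 2.53 ± 0.40 FPKM in cheek, which are log2 changes of -1.08 (limma adjusted p = 0.000105) and -0.94 (adjusted p = 0.000412). In abdomen the change was -0.60 (adjusted p = 0.00886). The summed level of 5 skeletal muscle markers was 434.2 to 13416 FPKM in unwounded abdomen and 1528 to 4625 FPKM in abdomen wounds, which overlapped. In back it was 11973 to 18888 FPKM in unwounded skin and 2805 to 3993 FPKM in wounds. In cheek it was 9727 to 19570 FPKM in unwounded skin and 4223 to 5796 FPKM in wounds. The ranges of back and of cheek were thus separate. None of the 5 was called at any site, their median wound effect was -0.58, -2.20 and -1.66 on the log2 scale at abdomen, back and cheek, and the part of muscle in the Ctf1 difference was not tested. The kinases and transducers (8 genes) had 1 call, Jak2 in back, at 0.57 (adjusted p = 0.000986). This count is near the background, since 10% of all genes tested rose in back. The Jak2 call held in 3 of 12 fits that left out a mouse and in 2 of 9 other settings. The Il27ra call in back held in 2 of those 12 fits, with an adjusted p of up to 0.00817, and in 3 of 9 other settings. The other inhibitors (7 genes) had 1, 3 and 1 calls, all upwards: Socs1 rose by 1.03 (adjusted p = 0.000347) in abdomen and 0.87 (adjusted p = 0.000545) in back, Ptpn6, a phosphatase of haematopoietic cells, by 1.03 in back and 0.95 in cheek, and Ptpn2 by 0.51 in back. The calls in these 3 lists other than Jak2 and Il27ra held in 8 to 11 of those 12 fits. The genes of these 3 lists were singled out after their values were seen.

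Genes known to respond to STAT3 held most of the calls, with 6, 11 and 7 of 19 raised in abdomen, back and cheek and none lowered. Called at all 3 sites were Saa3, Timp1, Il4ra, Junb and Bcl3, and these were the only pathway genes for which that held. Saa3, an acute-phase serum amyloid gene, went from 3.01 ± 2.46 to 809.7 ± 447.1 FPKM in abdomen, 6.55 ± 5.41 to 1434 ± 374.4 FPKM in back and 1.67 ± 0.31 to 766.6 ± 571.8 FPKM in cheek (SD, n = 4), a rise of 8.01 to 8.13 on the log2 scale. Timp1, an inhibitor of matrix metalloproteinases, rose by 3.14, 3.36 and 3.66 in abdomen, back and cheek. For Il4ra, a subunit of the interleukin-4 receptor, the rises were 1.39, 1.94 and 1.89, for the AP-1 subunit Junb 1.32, 1.89 and 1.46, and for the NF-kappaB co-factor Bcl3 1.45, 1.57 and 1.45. Other inducers, NF-kappaB among them, act on several of these genes, so that their rise is not a measure of STAT3 activity. Myc, Bcl2l1 and Ccnd1, also on the list, were not called at any site.

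**Figure D5:**
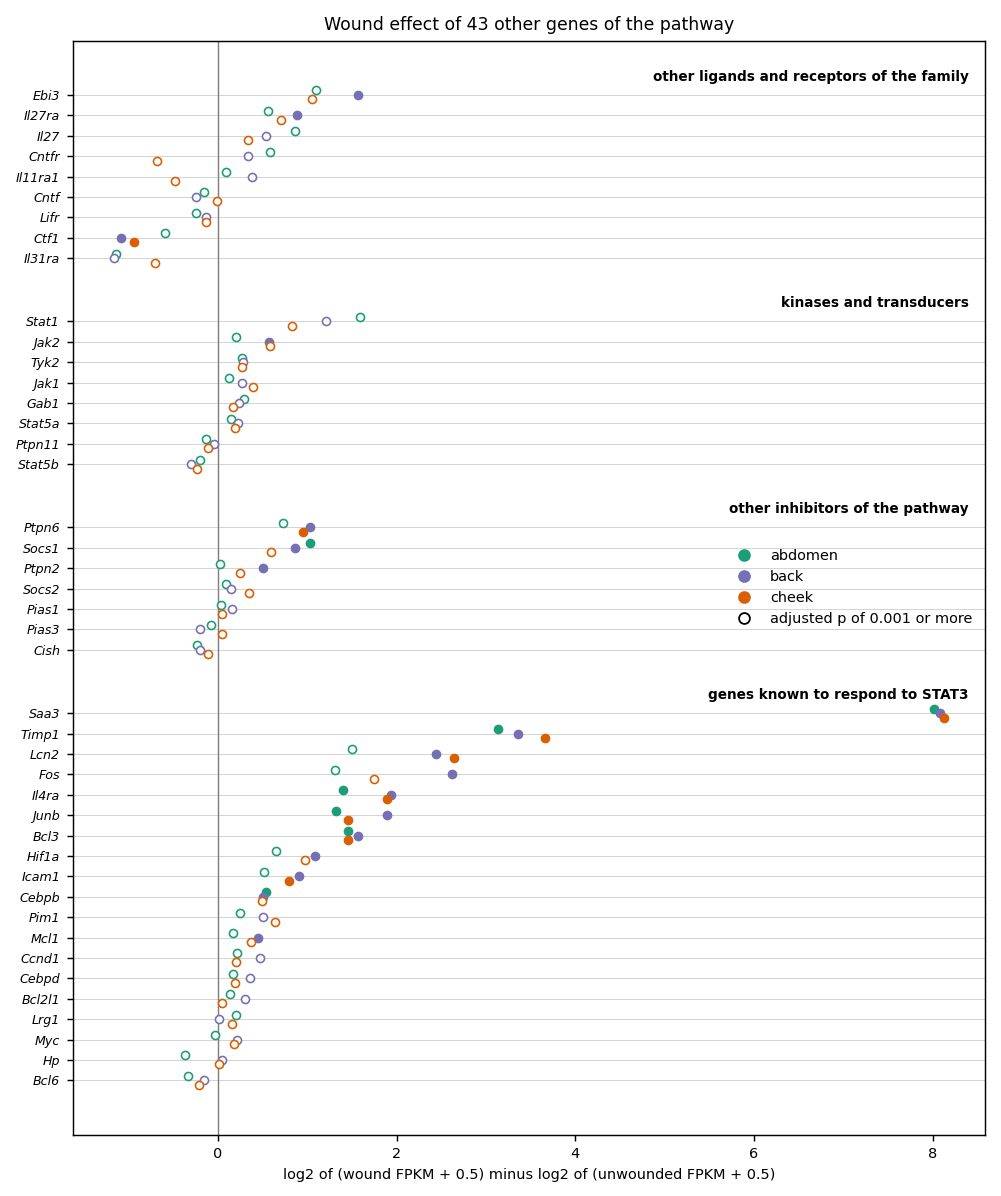
Wound effect (x axis, difference of log2(FPKM + 0.5)) of 43 of the 44 tested pathway genes at the 3 sites, grouped by list; filled points passed the threshold of 0.001. Saa3 stands alone near 8, and most of the filled points belong to the genes known to respond to STAT3.

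As a mean over the 3 sites 22 of the 44 pathway genes rose and 4 fell (Ctf1, Il31ra, Stat5b and Bcl6). Of all genes tested 19.1% rose and 14.4% fell in that contrast, so the count that fell was below the background. Between sites 3 calls were made in all. These were 1 of 43 genes tested for back against abdomen and 1 of 43 for cheek against back in unwounded skin, where 2.67% and 1.05% of all genes passed, and 1 of 44 for cheek against abdomen wounds, where 10.8% of all genes passed, so the counts were near or below the background. In unwounded skin Fos was lower in back (2.92 ± 1.17 FPKM) than in abdomen (10.1 ± 2.95 FPKM), by 1.66 on the log2 scale (SE 0.35, limma adjusted p = 0.0300), a call that held in 6 of 12 fits that left out a mouse. The receptor gene of interleukin-11, Il11ra1, was higher in cheek (90.7 ± 4.43 FPKM) than in back (57.1 ± 6.15 FPKM), by 0.67 (SE 0.11, adjusted p = 0.0106), which held in 12 of 12. The mouse has a near-identical copy of it, and reads could be shared between the 2. In wounds Cebpb was 0.57 lower in cheek than in abdomen (SE 0.15, adjusted p = 0.0339), which held in 7 of 12.

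Whole-tissue markers placed every library as skin: 5 keratinocyte markers summed to 4927 to 17552 FPKM and 6 fibroblast markers to 5936 to 23060 FPKM over the 24 libraries, and no skin marker was at 0 throughout a group. As a mean over the sites 3 of the 5 keratinocyte markers and 3 of 4 endothelial markers rose, 2 of 6 fibroblast and 4 of 4 adipocyte markers fell, 1 of 5 T cell markers rose and 2 fell, and none of 4 mast cell or 5 muscle markers was called. In that contrast 19.1% of all genes tested rose and 14.4% fell, so 1 of 5 rising is near the background.

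For the 3 members Il6, Osm and Socs3, the genes whose log2(FPKM + 0.5) was most like theirs over the 12 wound libraries were listed by Pearson's r, as a description over libraries of 3 sites. Il6 was most like Cpxm1 (r = 0.919), Crem (r = 0.917) and Nfil3 (r = 0.904). Osm was most like Ppp1r15a (r = 0.954), Srgn (r = 0.945) and Sra1 (r = 0.942), and Socs3 like Il17ra (r = 0.948), Tpcn2 (r = 0.946) and Htr2a (r = 0.920). These are the top of a ranking of all tested genes outside the members. With 12 libraries the top of such a ranking can be high without any link, and no test was made.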

How the data were processed

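Total RNA of whole skin punches was sequenced in 24 libraries (12 wounds and 12 unwounded controls of 12 mice). The authors deposited FPKM values per gene, rounded to 2 decimals; BGI made and sequenced the libraries (BGISEQ-500), and the submitters' processing notes name HISAT2, Bowtie2 2.2.5, RSEM 1.2.12, DESeq2 and the build mm10 (GRCm38). A second table holds fold changes and adjusted p-values of the authors' own 9 comparisons and was not used. The library sums of FPKM ran from 490830 to 608888. FPKM tables carry no counts, so that depth and counting error per gene are unknown, and the lowest values above 0 were 0.06 FPKM for Il6, 0.03 for Il11 and 0.1 for Osm. Every per-sample column matched 1 label, and 0 were left aside.

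FPKM values were transformed to log2(FPKM + 0.5) and fitted with limma 3.58.1 (trend and robust, statmod 1.5.0, R 4.3.3), on genes that reached 0.5 FPKM in no fewer than 4 of the libraries fitted. Wound effects came from the 24 libraries together, each mouse having its own term, and site contrasts from the 12 libraries of a state. Adjustment was by Benjamini-Hochberg over all genes tested, and the threshold was 0.001 for wound effects and 0.05 elsewhere. Single-gene checks were exact permutation tests, two-sided (the smallest p is 0.0286 for 4 against 4 and 0.125 for 4 pairs). The models were also run on simulated data with independent noise and no mouse effect, with changes added only to genes above the lowest levels. That run tested neither the pairing nor genes of very low level. The pairing is by animal, as the series' design states. As a check, the 2 libraries of a mouse deviated together from their group means, with a mean correlation over genes of 0.322, 0.348 and 0.281 in abdomen, back and cheek (lowest pair -0.03), against -0.11, -0.12 and -0.10 for libraries of different mice. Deviations from the mean of 4 libraries add up to 0. The negative values therefore largely follow from the positive ones and are no separate check. The mouse numbers do not link sites, because each mouse was wounded at a single site. Mice are separate animals and the replicates.

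The members and the gene lists were chosen with earlier results of these data known. Named were all 10 members, pathway genes called in the same direction at all 3 sites or in the F test, and the 3 genes most like Il6, Osm and Socs3; others were named after their values were seen. In the plot of the pathway lists 1 gene is not reported here. Alternatives covered the pseudocount (0.1 and 1 FPKM), the filter (1 FPKM, or none), scaling, the mouse term, variance moderation, each site alone and leaving out each mouse. Added after seeing the data were the mean of the 3 wound effects and a threshold of 0.05.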

Additional observations from a re-analysis of the deposited data

Results flagged for a closer look

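Il11 in the wound of abdomen mouse 1 was 1.23 FPKM, while the other 3 abdomen wounds had 0.26 to 0.42 FPKM. The gap to the nearest library was 0.84 of the range of the 4 values, above Dixon's 95% critical value for 4 samples. It was 1 of 60 groups of 4 that passed this limit, and chance passes about 1 in 20. Without this mouse the wound effect of Il11 in abdomen was 0.18, the lowest over the leave-one-out fits.

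The wound effect of Lif, called at neither site, had opposite signs in abdomen and cheek. Each of the 4 abdomen mice had less Lif in the wound and each of the 4 cheek mice more. Some of these changes were very small: 0.56 to 0.54 FPKM in abdomen mouse 2 and 0.55 to 0.56 FPKM in cheek mouse 4. The mean effect in abdomen was lower than that in cheek, with a difference of -0.47 on the log2 scale. The difference was tested with limma, and its adjusted p was 0.358 (unadjusted p = 0.0218).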

How the results depend on the processing

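Of 1839 values recomputed under an alternative, 1594 kept their direction and their side of the threshold, 208 lost the threshold, 5 newly passed it, 27 were counts that moved by more than 1.5 times and 5 changed direction. The count of members that rose over the 3 sites (7), the counts that fell over the sites (0), that differed between wound effects (0) and that differed between sites in unwounded skin (0) were unchanged in every alternative run.

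With each site fitted on its own 8 libraries, 0 members and 1 pathway gene rose in abdomen, 10 pathway genes in back and 1 member in cheek. Quantile normalisation gave 2 members in abdomen and 11 pathway genes in back, and median-ratio scaling gave 11 pathway genes in back. At a threshold of 0.05, 17 pathway genes rose in abdomen, and 7 members and 20 pathway genes in cheek, where 16.9% and 19.7% of all genes tested rose. Leaving out 1 mouse gave 1 to 4 members in abdomen, 4 to 7 in back and 2 to 5 in cheek, 5 to 8, 7 to 16 and 5 to 10 pathway genes, and 0 to 2 members that differed between sites in wounds. These fits have fewer samples; beyond that the cause was not tested.

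The log2 fold change of Il6st in cheek wounds, close to 0, changed sign to -0.00970 with median-ratio scaling and -0.0370 with quantile normalisation, and ran from -0.0889 to 0.162 when 1 mouse was left out (below 0 without cheek mouse 3 or 4). That of Il6ra in cheek ran from -0.125 (without cheek mouse 4) to 0.191.

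With no replicate block, that is without the term for the mouse, the members that rose numbered 4, 7 and 6 at abdomen, back and cheek and the pathway genes 5, 12 and 11. With the mouse number as a block across sites, no member differed between sites in either state. The unknown depth limits Il6, Il11 and Osm most, whose unwounded values lie at or near 0.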
